A study of Mus musculus with 6 samples.

Results

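*Glipr2*, *Trp53inp1* and *Tmem106b* are 3 genes with published roles in autophagy or in the lysosome, and they were followed here in UN-SCC679 and UN-SCC680, 2 mouse lines of lung squamous cell carcinoma. They are 3 of the 55359 rows of the count table. The 3 genes were selected on their measured counts, for the difference in level between the lines in these same libraries, so their levels and fold changes are given as a description and carry no test. Set beside them were their genomic surroundings, the other autophagy and lysosome genes, and their promoter sequences. The window around *Glipr2* was fixed together with this choice, and the gene lists were drawn up with earlier results of these data known. Calls among neighbors and list genes are therefore no independent support for the choice.

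Both lines came from tumors that A/J mice developed under skin treatment with the carcinogen N-nitroso-tris-chloroethylurea (NTCU). According to the study's methods, the cultured cells were passed through immunodeficient Rag2-/- IL2Rg-/- hosts and then grown in A/J hosts. The labels name no treatment of the cultures, and polyadenylated RNA of 3 libraries per line was sequenced (strain A/J, line UN-SCC679 or UN-SCC680). Each line stands for 1 line only, so a difference between them cannot be told apart from a difference between 2 tumors, and normal basal cells were not analysed here. The labels do not say whether the 3 libraries of a line came from separate cultures, so p-values measure the spread between these libraries, which may be technical. In bulk RNA, fewer cells that express a gene and less RNA of it per cell cannot be told apart.

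Library totals lay between 3568293 and 4381885 counts. The table names most genes at positions that are not those of GRCm38 (mm10), the build given for the reads, and 24994 rows lie more than 1000 bases from their GRCm38 place at both ends, called moved positions below. Counts of such rows were not read as expression of the gene named. Where they passed the low-count filter, they still entered the scaling between libraries, the dispersion estimate and the p-value adjustment. Only 527 rows began or ended no more than 10 bases from their GRCm38 place, called unchanged positions, and 268 of them passed the low-count filter, which kept 8987 rows in all. All 3 genes are among these 268. The 7 basal and squamous markers, *Trp63*, *Krt5* and *Krt14* among them, all lie at moved positions, so the labelled cell type could not be checked, and nor could those of leukocytes, endothelium or alveolar and club cells. Of 8 fibroblast markers, *Col1a2*, a collagen I chain, was the 1 gene at an unchanged position. In normalized CPM (counts scaled to a common library size), it stood at 28060 ± 1224 for UN-SCC679 against 2267 ± 94.2 for UN-SCC680 (SD, n = 3 each), and the part of fibroblast-like cells in the differences below was not tested.

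Autophagy delivers cytoplasmic material to the lysosome in double-membrane vesicles, whose formation needs the Beclin 1 lipid kinase complex and whose cargo is captured by LC3-family proteins. Glipr2 (GAPR-1), a small lipid-binding protein of the Golgi membrane from the CAP family, binds Beclin 1 and is known as a negative regulator of vesicle formation. Trp53inp1, a p53-induced stress protein, binds LC3-family proteins and is known to favor autophagy-dependent cell death, and Tmem106b is a membrane protein of late endosomes and lysosomes that affects lysosome size, transport and acidification.

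The promoter windows of *Glipr2* and *Tmem106b* are shown because, of the 3 genes, the first differed most between the lines and the second least. They are RefSeq sequences of GRCm38.p6, from 250 bases before to 50 bases after the annotated start. Of the 3 genes, 2 matched an entry, and *Trp53inp1* did not. Capitals mark the GC boxes (GGGCGG, here also read as CCGCCC on the other strand) and the TATA letters (TATAA on either strand, 1 shared TTATAA) in the *Glipr2* window at chr4:43957452-43957751, + strand, and the letters of the NRF1 motif in the *Tmem106b* window at chr6:13069509-13069808, + strand.
Glipr2 promoter: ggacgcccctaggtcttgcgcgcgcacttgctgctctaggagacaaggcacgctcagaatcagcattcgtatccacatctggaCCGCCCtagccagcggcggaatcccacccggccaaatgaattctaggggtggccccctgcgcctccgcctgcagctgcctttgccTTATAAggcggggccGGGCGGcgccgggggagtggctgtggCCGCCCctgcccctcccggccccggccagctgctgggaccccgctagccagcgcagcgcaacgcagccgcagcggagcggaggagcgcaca
Tmem106b promoter: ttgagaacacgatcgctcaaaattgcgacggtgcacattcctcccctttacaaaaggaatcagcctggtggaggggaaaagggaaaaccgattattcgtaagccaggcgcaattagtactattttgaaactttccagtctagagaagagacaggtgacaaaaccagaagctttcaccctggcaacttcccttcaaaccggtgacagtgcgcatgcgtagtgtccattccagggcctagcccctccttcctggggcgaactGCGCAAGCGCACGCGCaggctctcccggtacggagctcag
The *Glipr2* window had a GC content of 70.0% and 28 CpG dinucleotides, at or above those of 90.9% and 87.1% of the 32817 windows. It held 3 GC boxes, a motif found on either strand in 35.6% of all windows, and the TATA letters, found in 24.9%. The *Tmem106b* window was closer to the middle in GC content, at or above that of 51.4% of windows. Its 17 CpG dinucleotides lay at percentile 70.3, beside a median of 7. It held 2 overlapping matches to the NRF1 motif, which 4.59% of windows contain. The letters CACGTG, the core of the element through which TFEB reaches lysosome genes, were not found in either window (7.15% of all windows), nor were CCAAT (37.4%) or TGANTCA (7.81%). These are matches of letters and no measure of binding. In the table the first *Glipr2* exon begins at 43957401, upstream of the RefSeq start at 43957702, and thus upstream of the window shown.

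*Glipr2* (ENSMUSG00000028480.15, chromosome 4, 43957401 to 43979118, + strand, 5 merged exon blocks of 2320 bases) was close to the detection floor in UN-SCC679 and abundant in UN-SCC680. Its counts were 10, 12 and 14 in the UN-SCC679 libraries and 1328, 1470 and 1462 in the UN-SCC680 libraries. As normalized CPM, these were 2.69, 2.73 and 3.92 against 316, 340.2 and 345. Every UN-SCC680 library lay far above every UN-SCC679 library. The means of 3.11 ± 0.696 and 334 ± 15.7 CPM (SD, n = 3 each) differ by 6.75 on the log2 scale (standard error 0.11, 95% interval 6.53 to 6.96), or 107-fold. Taken between single libraries of the 2 lines, the ratio ran from 80.7-fold to 128-fold, with the low UN-SCC679 counts setting most of this range. The spread in UN-SCC679, a coefficient of variation of 22.4%, was no wider than the 28.9% that counting alone gives at 36 counts over 3 libraries. In UN-SCC680 the spread was 4.69%, against 2.65% from counting.

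*Trp53inp1* (ENSMUSG00000028211.12, chromosome 4, 11156431 to 11174379, + strand, 5 merged exon blocks of 6475 bases) was readily detected in both lines and higher in UN-SCC680. The libraries held 284, 346 and 244 counts in UN-SCC679 and 1824, 1879 and 1880 counts in UN-SCC680. Scaled to library size this gave 76.4, 78.7 and 68.2 CPM against 434.0, 434.9 and 444 CPM, with no overlap. The means of 74.4 ± 5.49 and 438 ± 5.55 CPM (SD, n = 3 each) correspond to a log2 fold change of 2.55 (standard error 0.05, 95% interval 2.44 to 2.66), or 5.86-fold. Ratios between single libraries ran from 5.52-fold to 6.51-fold. In UN-SCC680 its 3 libraries varied by 1.27%, less than the 2.32% expected from counting alone.

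*Tmem106b* (ENSMUSG00000029571.15, chromosome 6, 13069758 to 13089268, + strand, 11 merged exon blocks of 6931 bases) was abundant in both lines and modestly lower in UN-SCC680. It held 3332, 3925 and 3095 counts in UN-SCC679 and 2973, 3170 and 3242 in UN-SCC680. The raw counts of the lines overlap, and they separate only once library size is taken into account, at 897, 892 and 866 CPM against 707, 734 and 766 CPM. The means were 885 ± 16.9 and 736 ± 29.2 CPM (SD, n = 3 each), so the level in UN-SCC680 was 16.9% lower (log2 fold change -0.27, standard error 0.035, 95% interval -0.34 to -0.20). The ratio of single UN-SCC680 to UN-SCC679 libraries lay between 0.789 and 0.885, below 1 in every pair.

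**Figure D1:**
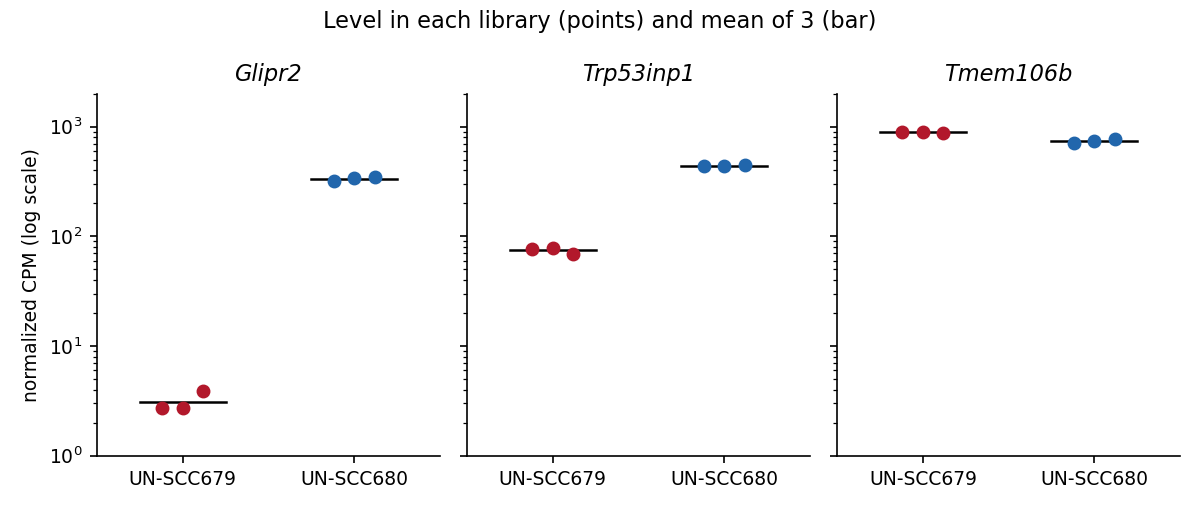
Normalized CPM (log scale) of the 3 genes in each library, with points for the 3 libraries of a line and a bar for their mean. *Glipr2* lies near 3.11 CPM in UN-SCC679 and 334 CPM in UN-SCC680, *Trp53inp1* near 74.4 and 438 CPM, and *Tmem106b* near 885 and 736 CPM.

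No other row of the table overlaps the span of any of the 3 genes on either strand. In RefSeq (GRCm38.p6), the long noncoding RNA gene Gm30377, at 43955718 to 43963700 of chromosome 4, shares 6300 bases with the span of *Glipr2*, and with no strand setting given its reads cannot be told apart from those of *Glipr2* where exons coincide. Of the 268 tested genes at unchanged positions, counted from the largest log2 fold change down, *Glipr2* had rank 1, *Trp53inp1* rank 5 and *Tmem106b* rank 202. As background for these ranks, 61.6% of the 268 genes were called different between the lines (39.6% higher and 22.0% lower in UN-SCC680) and 30.4% of all 8987 rows were. A call here means an adjusted p under 5e-05, the limit used in the study, by the quasi-likelihood test of edgeR, adjusted by Benjamini-Hochberg over all 8987 rows. Scaling on the 268 genes alone moves their median log2 fold change from 0.18 to -0.004 and the share of calls higher in UN-SCC680 from 64.2% to 46.9%, and it puts *Glipr2*, *Trp53inp1* and *Tmem106b* at 6.57, 2.37 and -0.45.

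Levels can be compared between genes per length of merged exon. In UN-SCC679, *Tmem106b* led with 128 ± 2.43 CPM per kb, followed by *Trp53inp1* with 11.5 ± 0.848 and *Glipr2* with 1.34 ± 0.300 (SD, n = 3 each). In UN-SCC680 the order was *Glipr2* with 144 ± 6.75 CPM per kb, *Tmem106b* with 106 ± 4.21 and *Trp53inp1* with 67.6 ± 0.857. Neighbors in either order were further apart than their spread. Per length, *Glipr2* thus moved from below to above *Tmem106b*, with a ratio of 0.0105 ± 0.00258 in UN-SCC679 and 1.36 ± 0.0265 in UN-SCC680. Without division by length *Glipr2* stayed below *Tmem106b*, at a ratio of 0.454 in UN-SCC680. The per-length ratio of *Trp53inp1* to *Tmem106b* went from 0.0900 ± 0.0051 to 0.637 ± 0.0182, and it stayed below 1 in both lines. Among the 268 genes, the per-length level of *Glipr2* rose from rank 245 to rank 54, that of *Trp53inp1* from 202 to 108, and that of *Tmem106b* went from 58 to 71. These ratios are taken within a library and do not depend on how libraries are scaled.

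**Figure D2:**
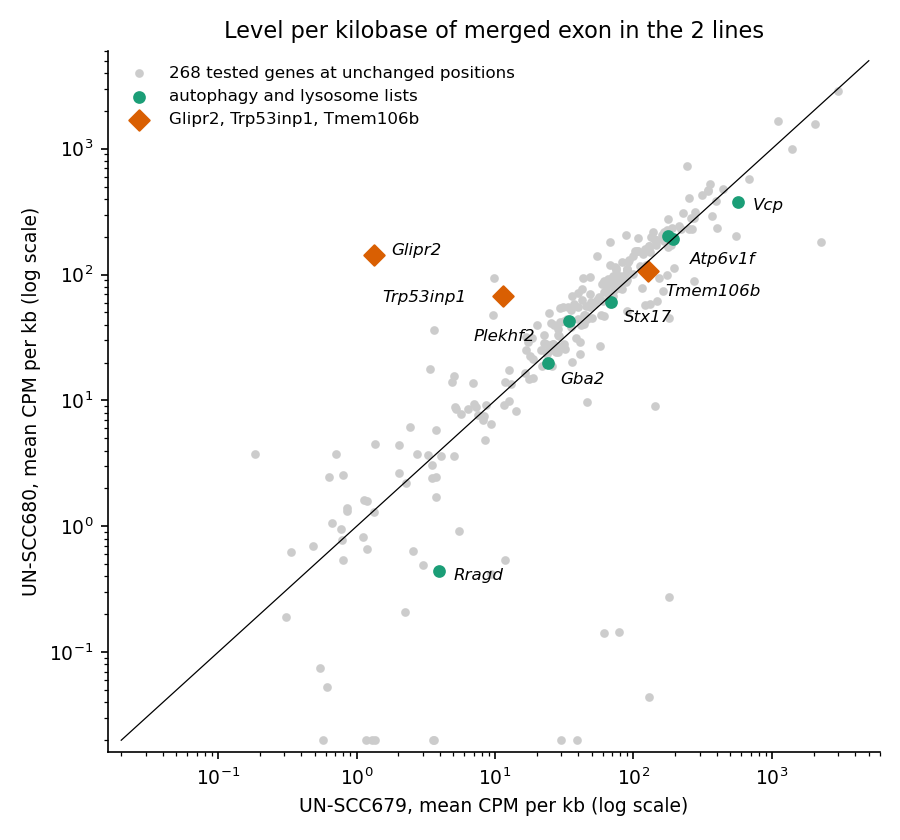
Mean CPM per kb of merged exon in UN-SCC679 (x axis) and UN-SCC680 (y axis), both on log scales, for the 268 tested genes at unchanged positions, with equal levels on the line. *Glipr2* (1.34 against 144) and *Trp53inp1* (11.5 against 67.6) lie above the line and *Tmem106b* (128 against 106) just below it, and 8 genes under 0.02 CPM per kb in a line are drawn at that limit.

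The rise of *Glipr2* was set beside the genes around it on chromosome 4, from *Car9* (start 43506966) to *Melk* (end 44364675). Of the 42 other rows in this window, 20 lie at unchanged positions and 15 of these were tested. Their log2 fold changes ran from -0.83 to 3.30, and 12 were above 0. Their median was 0.37, beside 0.33 over the 172 tested unchanged genes of chromosome 4. *Glipr2* lay 6.38 above the median of the 15, and this gap ran from 6.28 to 6.65 with 1 library left out. Another scaling shifts all genes alike, so it leaves the gap at 6.38 by construction. *Glipr2* was selected for its difference and had rank 1 of the 268 genes. It thus had to lie above every tested neighbor, and the gap is a description and no test. Of the 15, 6 were called higher, where 50.6% of tested unchanged genes of chromosome 4 were. None was called lower (0 of 15) by edgeR, DESeq2 or limma-voom, where 19 of the 172 tested unchanged genes of chromosome 4 were, and 3 were lower at an unadjusted p under 0.05. With scaling on the 268 genes alone, edgeR called 5 higher and 1 lower, *Gba2* (log2 fold change -0.46, adjusted p = 2.88e-07).

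The closest tested neighbor of *Glipr2* at an unchanged position was also strongly higher. *Reck*, a membrane-anchored inhibitor of matrix metalloproteinases, ends 12.6 kb upstream, and its counts were 56, 92 and 46 in UN-SCC679 and 347, 371 and 357 in UN-SCC680 (log2 fold change 2.34, standard error 0.11, adjusted p = 5.62e-23 from edgeR). On the other side, *Clta*, the clathrin light chain A gene 25.3 kb downstream, rose by far less, from 618 ± 11.7 to 852 ± 29.1 CPM (log2 fold change 0.46, adjusted p = 1.96e-15). The next tested gene out on each side was not called. *Gne*, an enzyme of sialic acid synthesis 55.0 kb downstream, had a log2 fold change of 0.21 (adjusted p = 0.00222), and *Spaar*, 198 kb upstream, had one of -0.83 (adjusted p = 0.0101) on 11 to 28 counts per library. The largest change after *Glipr2* was at the far edge of the window. *Car9*, the hypoxia-inducible carbonic anhydrase 444 kb upstream, held 34, 40 and 25 counts in UN-SCC679 and 366, 333 and 368 in UN-SCC680 (log2 fold change 3.30, adjusted p = 7.41e-27).

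Between these, changes were small. *Tln1* (talin 1) and *Melk* (a mitotic kinase) were called higher at log2 fold changes of 0.56 and 0.37, with edgeR adjusted p-values of 1.65e-21 and 3.49e-11. Of the 9 genes not called, *Creb3* (0.25) and *Hint2* (0.44) were just short of the threshold, at adjusted p-values of 5.21e-05 and 5.47e-05, and the count of called neighbors ran from 5 to 8 with 1 library left out. *Tln1*, *Creb3*, *Gba2* and *Rgp1* overlap one another end to end, as do *Fam221b* and *Tmem8b*. The strand setting of the counting is not given in the sources used here, so their counts may share reads.

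Small increases were common around *Trp53inp1*, as they were over the 172 tested unchanged genes of chromosome 4, whose median log2 fold change was 0.33. Within 1 Mb on each side, 14 of the 17 unchanged rows besides *Trp53inp1* were tested, and 10 were called higher, 1 lower and 3 not, beside 50.6% of tested unchanged genes on chromosome 4 called higher. The median log2 fold change of these 14 was 0.42 and the highest 0.95, so *Trp53inp1* at 2.55 stood above every tested neighbor and 2.14 above their median. *Trp53inp1* was selected for its difference and had rank 5 of the 268 genes, so few tested genes could have stood above it. Its place among the neighbors is a description and no test. Downstream, *Ccne2* (cyclin E2, 17.0 kb away) had 1154, 1365 and 1121 counts in UN-SCC679 and 1576, 1634 and 1719 in UN-SCC680 (log2 fold change 0.31, edgeR adjusted p = 2.55e-08). *Ints8*, an Integrator subunit gene that overlaps *Ccne2*, followed 24.8 kb away with 0.25 (adjusted p = 2.3e-07). Upstream, *Plekhf2* at 149 kb and 2610301B20Rik at 257 kb had log2 fold changes of 0.33 and 0.49 (adjusted p = 8.47e-06 and 1.42e-10).

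Farther from *Trp53inp1*, the other called increases were those of *Dpy19l4* (0.34, 86.9 kb downstream), Gm11832 (0.95), *Pdp1* (a pyruvate dehydrogenase phosphatase, 0.84), *Rad54b* (a recombination gene, 0.76), *Cibar1* (0.54) and *Virma* (an RNA methylation factor, 0.51), with edgeR adjusted p-values of 3.11e-05 or less. *Gem*, a small GTPase gene, was the 1 neighbor called lower, with 23, 28 and 13 counts in UN-SCC679 and 4, 5 and 8 in UN-SCC680 (log2 fold change -2.01, adjusted p = 6.09e-06). This call rests on few counts and was lost without UN-SCC679 replicate 2 (adjusted p = 0.000404), UN-SCC680 replicate 1 (0.000251) or UN-SCC680 replicate 2 (0.000115). DESeq2 (adjusted p = 0.00044) and limma-voom (7.63e-05) did not call *Gem*, and so called 0 of the 14 lower. The calls of *Plekhf2* and Gm11832 were lost with some libraries left out as well, at most to adjusted p-values of 0.000235 and 0.00115, both without UN-SCC679 replicate 2. Gm11832 was not called by DESeq2 (0.00166) or limma-voom (9.11e-05), nor *Plekhf2* by DESeq2 (0.00027). Gm11832 lies wholly within the span of *Rad54b* on the other strand, so these increases may share reads. With scaling on the 268 genes alone, 6 neighbors were called higher and 1 lower. The distance of *Trp53inp1* from the median was 2.13, which scaling leaves nearly as it was by construction.

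Around *Tmem106b* tested genes were few and distant. Of 5, 4 had a log2 fold change above 0, all downstream, beside -0.27 for the gene. The window of 1 Mb on each side on chromosome 6 held 24 other rows, of which 7 were unchanged and 5 tested, the nearest 491 kb away. Of the 5, 4 were called higher and 0 lower, where 21.5% of the 65 tested unchanged genes of chromosome 6 were called higher and 43.1% lower. DESeq2 and limma-voom each called 3 higher and 0 lower, and 0 were lower at an unadjusted p under 0.05. The median of the 5 was 0.26, and the difference of *Tmem106b* from it was -0.53, or -0.57 to -0.52 with 1 library left out. Over the 65 tested unchanged genes of chromosome 6 the median was -0.15, on the same side of 0 as *Tmem106b*. *Gpr85*, an orphan receptor gene 745 kb downstream, rose most, from 61, 92 and 81 to 233, 248 and 250 counts (log2 fold change 1.52, edgeR adjusted p = 2.04e-16). *Bmt2*, whose product acts as a nutrient sensor upstream of mTORC1, rose by 0.57 (adjusted p = 1.53e-14). *Tmem168* (0.24, adjusted p = 3.28e-06) and 2610001J05Rik (0.26, adjusted p = 2.04e-05) were called by a smaller margin. The call of 2610001J05Rik was lost with DESeq2 (adjusted p = 0.00043) and limma-voom (7.08e-05), and without UN-SCC679 replicate 3 (0.000268) or UN-SCC680 replicate 2 (0.000884). Without UN-SCC679 replicate 2 or without UN-SCC680 replicate 3, neither of these was called and 2 neighbors remained past the threshold, and 2 were called with scaling on the 268 genes alone. The fifth, the pseudogene Gm6578, 960 kb upstream, had 5 to 15 counts per library and was not called (log2 fold change -0.59, adjusted p = 0.143).

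**Figure D3:**
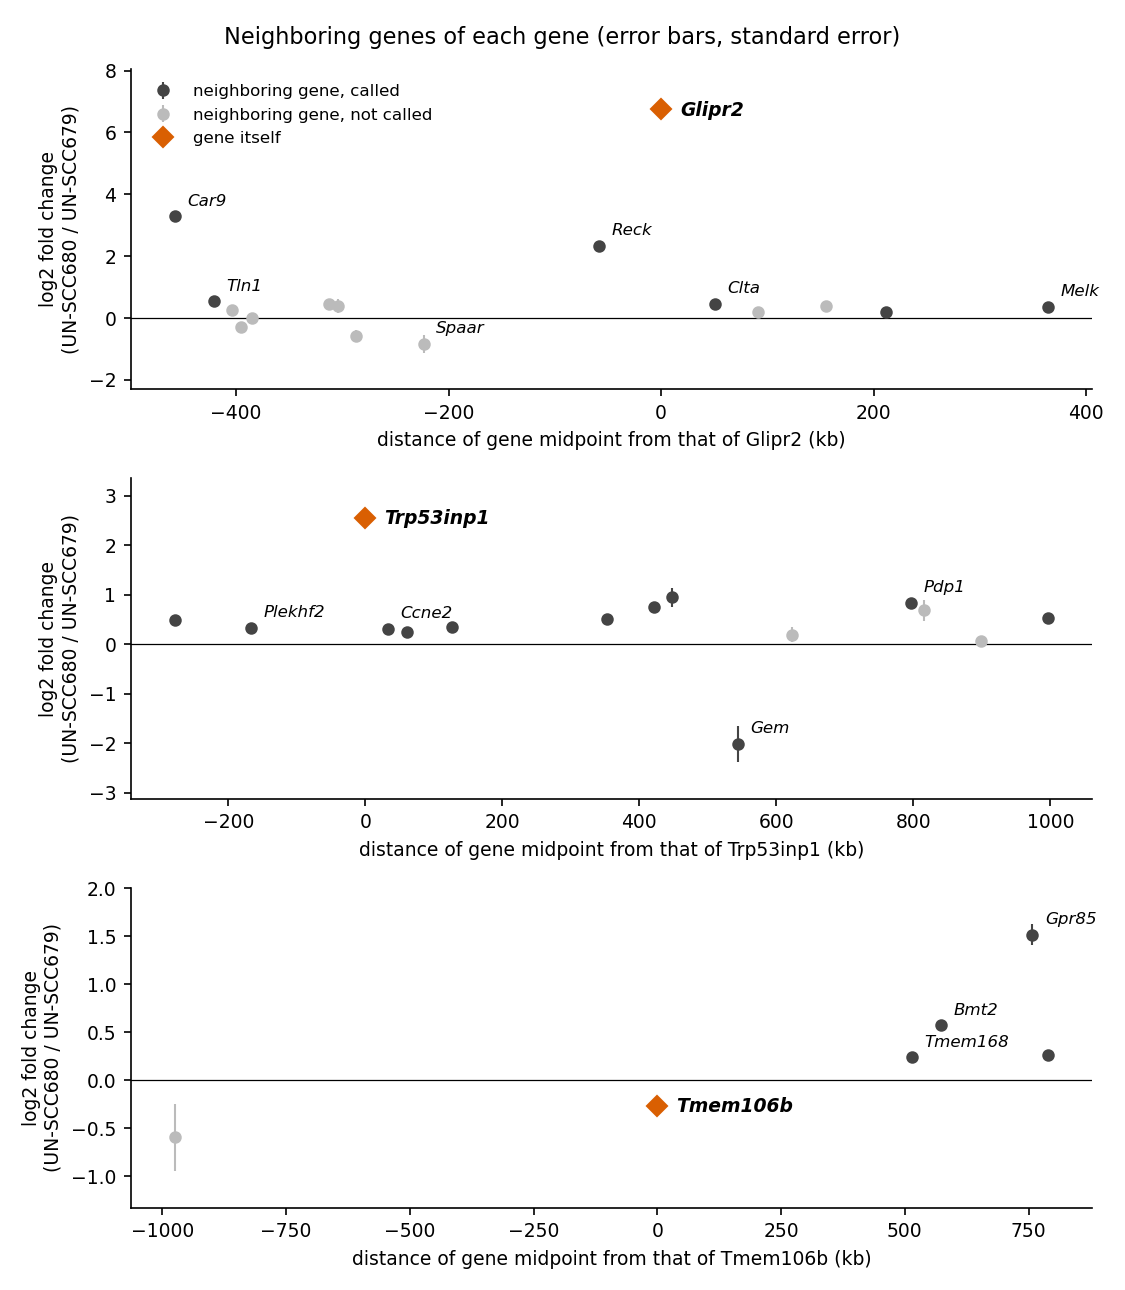
Log2 fold change (UN-SCC680 over UN-SCC679) of *Glipr2*, *Trp53inp1* and *Tmem106b* (diamonds) and of their tested neighbors at unchanged positions (circles, dark where called), against the distance between gene midpoints in kb, with standard errors as bars. *Glipr2* at 6.75 and *Trp53inp1* at 2.55 lie above all their neighbors, whose highest values are 3.30 and 0.95, and *Tmem106b* at -0.27 lies below the 4 called neighbors. The 3 genes were selected for their difference between the lines, so their place among the neighbors is no test.

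The share a gene takes of the counts of its own window, that is of itself and its tested neighbors, needs no scaling between libraries. For *Glipr2* it was 0.0462%, 0.0455% and 0.0653% in the UN-SCC679 libraries and 3.61%, 3.99% and 4.14% in those of UN-SCC680. The 95% Wilson interval was 0.0389% to 0.110% for the highest UN-SCC679 share and 3.42% to 3.81% for the lowest UN-SCC680 share. For *Trp53inp1* the shares were 2.29%, 2.42% and 2.10% against 9.31%, 9.11% and 9.19%. *Tmem106b* supplied 51.4%, 51.4% and 49.3% of its window in UN-SCC679 and 39.5%, 39.2% and 39.9% in UN-SCC680. The intervals cover counting error only, and since the genes were selected on these counts they give the precision of each share and no test of the lines.

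**Figure D4:**
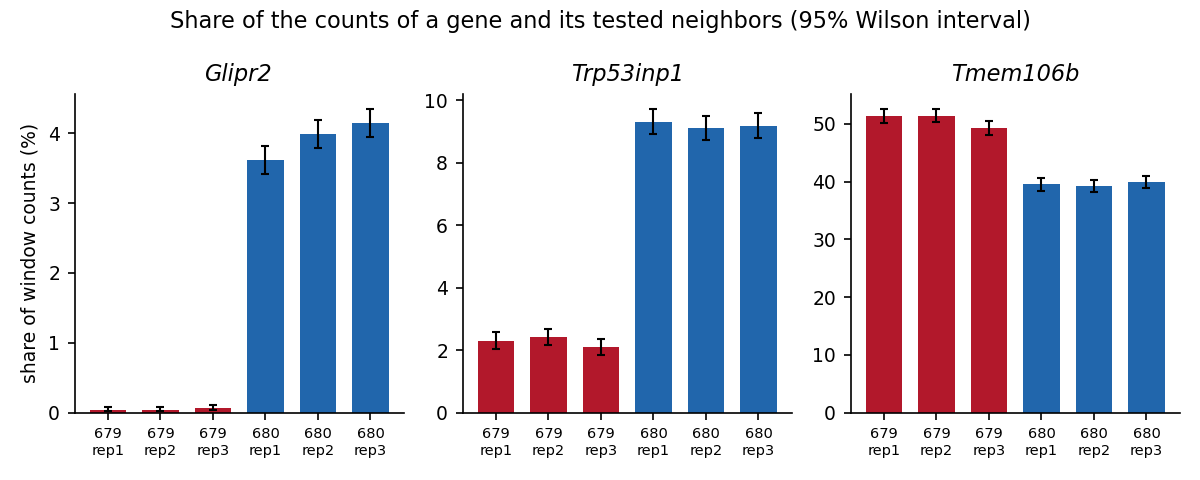
Share (%) of the counts of each gene and its tested neighbors that belongs to the gene, by library, with 95% Wilson intervals and axes from 0. Shares of *Glipr2* stay at or below 0.0653% in UN-SCC679 and reach 3.61% to 4.14% in UN-SCC680, those of *Trp53inp1* go from about 2.29% to 9.31%, and those of *Tmem106b* from about 51.4% to 39.5%.

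The other autophagy genes gave a mixed picture on a small base. Of 72 listed autophagy genes, 67 lie at moved positions, the core initiation and conjugation genes among them, and 5 could be tested. Of these 5, 2 were called higher, 2 lower and 1 not, where 61.6% of the 268 genes were called (39.6% higher and 22.0% lower), so the count of 4 of 5 is read as no result about autophagy genes. The median log2 fold change of the 5 was -0.17, beside 0.18 over the 268 genes. *Rragd*, a Rag GTPase through which amino acids recruit mTORC1 to the lysosome, fell from 82, 88 and 68 counts to 13, 8 and 8 (log2 fold change -3.15, standard error 0.22, edgeR adjusted p = 1.73e-16). *Vcp*, an unfolding ATPase needed for autophagosome maturation, fell from 2762 ± 12.2 to 1833 ± 19.2 CPM (log2 fold change -0.59, adjusted p = 1.32e-22). *Plekhf2*, an endosomal protein and also a neighbor of *Trp53inp1*, rose by 0.33 (adjusted p = 8.47e-06). Both calls of higher genes were lost without UN-SCC679 replicate 2, which left 2 called genes of the 5, *Rragd* and *Vcp*. *Stx17*, the autophagosomal fusion syntaxin, was not called (log2 fold change -0.17, adjusted p = 0.000302), but was with scaling by library size alone (3.83e-05) or on the 268 genes (7.66e-10).

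For the lysosome, into which the *Tmem106b* product is sorted, 3 of 71 listed genes lie at unchanged positions. *Atp6v0d2*, a proton pump subunit, had 1 count in all 6 libraries and was not tested. *Atp6v1f*, another subunit of that pump, was near equal at 205 ± 7.06 and 203 ± 4.18 CPM (SD, n = 3 each, log2 fold change -0.02, standard error 0.05, edgeR adjusted p = 0.789). *Gba2*, a glucosylceramidase outside the lysosome, had a log2 fold change of -0.28 (adjusted p = 0.000349), and was called with scaling on the 268 genes (2.88e-07). So 0 of the 2 tested list genes were called by edgeR, DESeq2 or limma-voom, beside 61.6% of the 268 genes called. The 1 at an unadjusted p under 0.05 was *Gba2*, whose product lies outside the lysosome. All 13 other CAP family genes matched in the table lie at moved positions, as do *Trp53inp2*, *Tmem106a* and *Tmem106c*, so relatives of the 3 genes could not be set beside them. Of 44 p53 target genes, the group to which *Trp53inp1* belongs, only *Klf4*, a transcription factor of epithelial differentiation, was measurable, and it rose from 29.8 ± 0.554 to 286 ± 9.13 CPM (log2 fold change 3.26, adjusted p = 2.53e-36).

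Genes whose pattern over the 6 libraries came closest to that of each of the 3 genes were sought among the 268, by the root mean square difference of log2 CPM centred on each gene's own mean. No gene came close to *Glipr2*. The nearest were *Klf4*, *Car9* and the gene model Gm11816, at differences of 1.66, 1.68 and 1.99. *Trp53inp1* had close counterparts in *Abca1* (a cholesterol exporter), *Ptpn3* (a tyrosine phosphatase) and *Reck*, at 0.126, 0.142 and 0.177, all on chromosome 4, with log2 fold changes of 2.38, 2.32 and 2.34. *Tmem106b* was closest to *Ube2h* (a ubiquitin-conjugating enzyme), *Ndufa5* (a subunit of respiratory complex I) and *Cav2* (a caveolin) on chromosome 6, at 0.0337, 0.037 and 0.0392, with log2 fold changes of -0.23, -0.21 and -0.34. Of the 268 genes searched, 172 lie on chromosome 4 and 65 on chromosome 6. Since the 6 libraries fall into 2 lines, likeness here is mostly a like size of the difference between the lines.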

How the data were processed

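The 6 libraries were grouped by the line that the labels name, 3 for each line, and all value columns were used (0 unused). The table the authors deposited gives raw counts, whole numbers for each Ensembl gene, beside exon positions and merged exon length. Trimmomatic, Kallisto pseudoalignment (mm10) and DESeq2 are given in the study's methods, whereas the submitters' processing notes name featureCounts and mm10, and the table has the featureCounts layout. Positions were compared with RefSeq genes of GRCm38.p6 by symbol. Of 55359 rows, 31021 had a symbol, and 29481 could not be placed on a RefSeq gene. An unchanged row had its start or end within 10 bases.

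The lines were compared by the quasi-likelihood test of edgeR after filterByExpr and TMM, without covariates, with Benjamini-Hochberg adjustment over 8987 rows and calls at 5e-05. Scaling, dispersion and adjustment thus used filtered rows at every position, of which 268 were at unchanged ones. TMM factors were 0.985 to 1.01 and the common biological coefficient of variation was 3.12%. Replicates differed by more than sampling noise. CPM used normalized library sizes, and levels per kb the deposited exon length. Library totals of 3568293 to 4381885 counts set the precision. Wilson intervals are at 95% and cover counting error only. The test was tested on simulated data.

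The 3 genes, the window around *Glipr2* and all lists were chosen with earlier results of these data known. Named are these genes, the nearest 2 tested neighbors on each side of each and up to 5 more called neighbors in each direction by fold change, every tested list gene at an unchanged position, and the 3 genes most alike by centred log2 CPM (prior count 2). Some genes that this rule names are not reported here. *Dpy19l4*, *Creb3*, *Hint2*, *Rgp1*, *Fam221b* and *Tmem8b* were named after their values were seen. Alternatives were other scalings, filters, tests, thresholds, windows, a replicate block and leaving out each library. Versions were Python 3.11.15 with matplotlib 3.10.9, statsmodels 0.14.6, NumPy 2.4.6, pandas 2.3.3 and SciPy 1.17.1, and R 4.3.3 with DESeq2 1.42.0, limma 3.58.1 and edgeR 4.0.16.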

Additional observations from a re-analysis of the deposited data

How the results depend on the processing

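The depth limits *Glipr2* in UN-SCC679, at 10 to 14 counts a library, and every statement on lists, of which few genes lie at usable positions. The log2 fold change of *Glipr2* ran from 6.65 to 6.93, that of *Trp53inp1* from 2.49 to 2.60 and that of *Tmem106b* from -0.29 to -0.23 with 1 library left out. Scaling on the 268 genes alone gave 2.37 for *Trp53inp1* and -0.45 for *Tmem106b*. It called 160 of 268 rows, 7 neighbors of *Trp53inp1*, 2 of *Tmem106b* and 1 gene of the lysosome list, *Gba2*. Without division by length, the ratio of *Glipr2* to *Tmem106b* was 0.00353 in UN-SCC679 and 0.454 in UN-SCC680, that of *Trp53inp1* to *Tmem106b* 0.0841 and 0.595, and that of *Glipr2* to *Trp53inp1* 0.0424 and 0.763, so that *Glipr2* led both others in UN-SCC680 per length only. Called neighbors of *Glipr2* numbered 13 at an adjusted p under 0.05, 2 with an added fold limit (absolute log2 fold change over 1), 1 of 4 with start and end both unchanged and 11 of 27 within 1 Mb on each side. Those of *Trp53inp1* numbered 1 with the fold limit and 5 of 7 with both ends unchanged, and those of *Tmem106b* 1 with the fold limit and 1 of 1 within 500 kb. The autophagy list had 2 calls with DESeq2 and 2 with a filter of 10 counts or more in each library, 1 with the fold limit and 1 of 2 with both ends unchanged, and the lysosome list had 1 at an adjusted p under 0.05. Of all rows, 5248 were called at 0.05 and 1024 with the fold limit. Of the 268, 53 were called with the fold limit and, of 73 with both ends unchanged, 42. Taking every tested row in the windows, chosen after seeing the data, gave 7 of 18, 14 of 25 and 5 of 7 called neighbors of *Glipr2*, *Trp53inp1* and *Tmem106b*. With 1 library left out, the calls were 5 to 8, 8 to 11 and 2 to 4 for these neighbors, 2 to 4 for autophagy, 0 for lysosome, 1 for p53 targets and 1 for fibroblast markers, 2226 to 2611 over all rows and 140 to 164 of the unchanged ones. Same-numbered libraries of both lines did not deviate together (correlations -0.0382, -0.000524 and -0.0218), so no pairing was used, and the replicate block gave 2523 rows, 153 unchanged ones and 5, 10 and 3 called neighbors. *Atp6v1f*, not called, turned to 0.016 with no low-count filter, and ran from -0.033 to 0.013 with 1 library left out (0.013 without UN-SCC679 replicate 2 and 0.001 without UN-SCC680 replicate 1). Over the 37 named genes and their 514 alternative values, 450 had the direction and side of the threshold first reported, 56 lost the call and 5 gained one. Fewer rows or stricter limits lower counts by construction, and other causes were not tested.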
